A study of Homo sapiens with 7 samples.

Results

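The ZNF genes described here were chosen by their summed raw counts: symbols made of ZNF, a number and at most 1 further letter, with 60 or more counts over 6 messenger RNA libraries. They numbered 150 of the 392 ZNF symbols listed in any library, and 150 of 9124 symbols of any kind at or above the same floor. The cells were HCT116, a line from a human colorectal carcinoma, and in every library they lacked DROSHA, the nuclease that releases microRNA precursors (DROSHA-KO). Into these knockout cells miR-148a-3p was transfected for 3 libraries, and they were set against 3 libraries of the same knockout cells given a control miRNA; all were collected after 48 h. The labels do not say whether the knockout line is 1 clone. Nor do they say that replicates were grown separately, so each p reflects only how far these libraries differ, possibly for technical reasons.

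Most ZNF genes encode proteins with tandem C2H2 zinc fingers, short folds that hold a zinc ion and read a few bases of DNA each, so that an array of fingers reads a long site. The largest subgroup carries a KRAB domain in front of the fingers, which recruits TRIM28 and the histone methyltransferase SETDB1 to silence chromatin, often at retrotransposons. Many of its genes lie in tandem clusters on chromosome 19. Other ZNF genes encode activators, corepressor subunits, ubiquitin or SUMO ligases and RNA-binding proteins, so the symbol names a fold and not a function.

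The microRNA that was added is shown first, because the comparison turns on it. It is the RefSeq mature sequence (GRCh38.p14, chromosome 7, 25949922 to 25949943, minus strand), and the capitals mark bases 2 to 8, the seed that pairs with target messages.
hsa-miR-148a-3p: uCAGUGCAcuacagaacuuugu
Target sites in the messages of ZNF genes were not analysed here.

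The miR-148a-3p libraries held 630142 to 1564125 counts and the control libraries 876131 to 1069154. Colon epithelium markers summed to 1023 to 2749 counts with miR-148a-3p and 1474 to 2071 with the control miRNA, although 5 of the 13 (KRT20, CDX1, LGR5, CDH17 and GPA33) had no read. Of 8 blood markers 1 was counted, at 2 to 10 counts with miR-148a-3p and 2 to 5 with the control miRNA, and PTPRC was at 0. Of 8 fibroblast and endothelial markers 5 were counted, at 28 to 83 counts with miR-148a-3p and 34 to 85 with the control miRNA, and DCN and LUM were at 0. DROSHA was at 17.4 ± 4.11 CPM with miR-148a-3p and 22.2 ± 6.53 CPM with the control miRNA (SD, n = 3), and its reads near the 3′ end do not check the knockout. CPM is the count scaled to library size after TMM normalization. The libraries were made with a 3′ messenger RNA kit, whose reads lie near the poly(A) end by design, so CPM was compared between genes without dividing by length; whether counts depended on transcript length was not tested. In bulk RNA, fewer cells that express a gene and less RNA per cell cannot be told apart.

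The ZNF genes were numerous and low. Their median level was 24.3 CPM (quartiles 14.96 and 44.2), against 43.1 CPM over all 9124 genes, and 38 of the 150 lay above that all-gene median. Because the floor chose the members on the same counts, these levels are a description. Of the 150, 63 were under 20 CPM, 56 between 20 and 50, 21 between 50 and 100, and 10 at 100 CPM or more. These 10 held 28.03% of the members' 33427 counts. A member had a median of 22 reads in a library, from 1 to 443, and 23 members had fewer than 5 reads in some library. Just inside the floor were ZNF384 and ZNF740 with 60 summed counts each and ZNF865 with 63. Just outside were ZNF780B and ZNF731P with 59 and ZNF500 with 58. The 242 symbols below the floor had a median of 20 summed counts. How reads that match several related ZNF genes were counted is not stated, so counts of close paralogs are uncertain.

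Fewer of the ZNF genes of chromosome 19 reached the floor. RefSeq lists 246 protein-coding ZNF symbols of this form there, of which 38 (15.4%) reached it, and 263 elsewhere, of which 109 (41.4%) did. At least 1 read was listed for 164 on chromosome 19 and for 216 elsewhere. Among members, the 38 on chromosome 19 had a median level of 19.02 CPM and the 112 on other chromosomes 25.97 CPM, and the 20 most abundant members held 2 from chromosome 19.

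**Figure D1:**
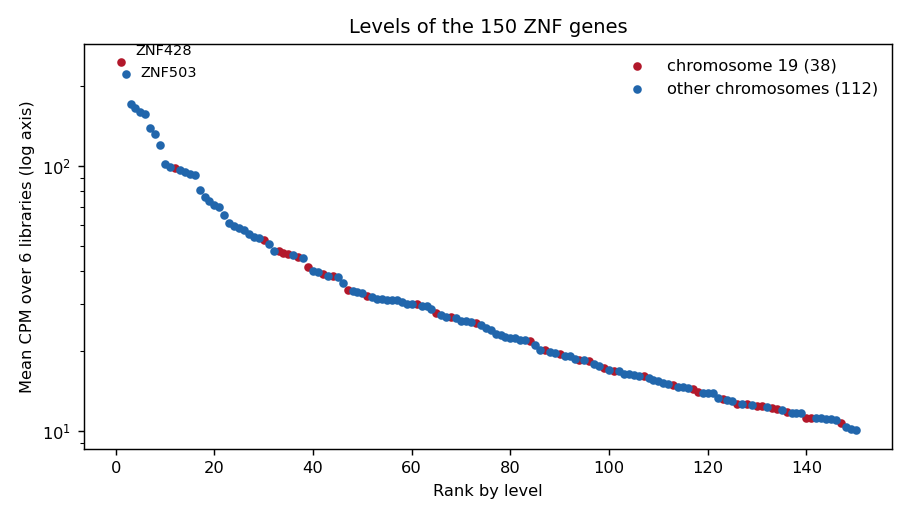
Mean CPM over the 6 libraries (log axis) of the 150 ZNF genes against their rank by level, coloured by location (38 on chromosome 19, 112 elsewhere). ZNF428 and ZNF503 stand at the head, and the chromosome 19 genes run through the whole order.

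The most abundant member was ZNF428 (chromosome 19, 43607224 to 43619629). It was counted at 291, 236 and 251 CPM with miR-148a-3p and at 207, 293 and 191 CPM with the control miRNA. The groups overlapped, and the log2 fold change, miR-148a-3p over control with its SE, was 0.18 ± 0.19 (edgeR adjusted p = 0.897). The ± of a log2 fold change is its SE throughout. ZNF503 (chromosome 10, 75279725 to 75401916), a corepressor of the same small family as ZNF703, was counted at 205, 289 and 163 CPM with miR-148a-3p and at 291, 229.9 and 155 CPM with the control miRNA. Replicates of ZNF503 differed by more than the means of these 2 genes, so their order is within their spread.

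Among the members that followed, neighbours in the order differed by less than the replicate spread. ZNF609, which binds Integrator and NIPBL, averaged 166 ± 15.1 CPM with miR-148a-3p and 176 ± 61.1 CPM with the control miRNA (SD, n = 3 each, as in all means below). ZNF24, a SCAN-domain factor, averaged 158 ± 30.1 CPM with miR-148a-3p and 172 ± 35.5 CPM with the control miRNA. ZNF827, which brings the NuRD complex to telomeres, averaged 171 ± 16.7 CPM with miR-148a-3p and 149 ± 21.5 CPM with the control miRNA. In these genes, as in all 10 most abundant members, the groups overlapped. ZNF638, a partner of the HUSH silencing complex, had a log2 fold change of −0.054 ± 0.20, and ZNF106, an RNA-binding protein, 0.18 ± 0.21. ZNF652, a DNA-binding repressor, had −0.089 ± 0.24, ZNF292, a large factor mutated in cancers, −0.30 ± 0.23, and ZNF451, a SUMO ligase, −0.10 ± 0.22.

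No ZNF gene changed past the threshold with miR-148a-3p. With edgeR 0 of 150 had an adjusted p below 0.05, against 1 of all 9124 genes tested (0.011%), and the smallest adjusted p among members was 0.632. Without adjustment, 3 lower and 5 higher members had p below 0.05, making 5.33% of members against 6.94% of all genes (3.45% lower and 3.49% higher). These counts depended on single libraries, with 7 lower and 4 higher without miR-148a-3p replicate 1, 1 lower and 6 higher without its replicate 2, and 2 lower and 1 higher without its replicate 3. They were 2 lower and 5 higher without control replicate 1, 3 and 3 without control replicate 2, and 4 and 6 without control replicate 3. DESeq2 and limma-voom also called 0 members after adjustment, and each gave 3 lower and 4 higher members without it.

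The groups did not overlap for 8 lower and 11 higher members, which is 12.7% against 12.9% of all genes (6.61% lower and 6.31% higher). The members' median log2 fold change was −0.022, with quartiles −0.27 and 0.25, and that of all genes was −0.0020, with quartiles −0.24 and 0.24. Fitted values were below 0 in 76 members and above 0 in 74. In 3 members (ZNF384, ZNF692 and ZNF217, 2.00%) the fitted change was 1 or more in size, against 1.96% of all genes. Together the members made up 0.570%, 0.576% and 0.551% of the miR-148a-3p libraries and 0.604%, 0.544% and 0.558% of the control libraries, with overlap.

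The low counts limited what these tests could show. The SE of a member's log2 fold change had a median of 0.39, from 0.19 to 0.63, against a median of 0.31 over all genes. When counts of the 9124 genes were simulated for this comparison, 42% of 100 genes given a change of 1 (log2) were called, and 89% of 100 given a change of 2. Those genes were drawn from all genes tested, whose median level was 43.1 CPM, against 24.3 CPM in the members. Planting many changes at once also makes the adjusted threshold easier to pass, so these shares are not those of ZNF genes. Within groups the members varied by a median of 2.07 times what Poisson counting gives, against 2.58 times over all genes tested. Such a ratio depends on level, which was lower in the members, so it does not show that ZNF genes vary less.

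**Figure D2:**
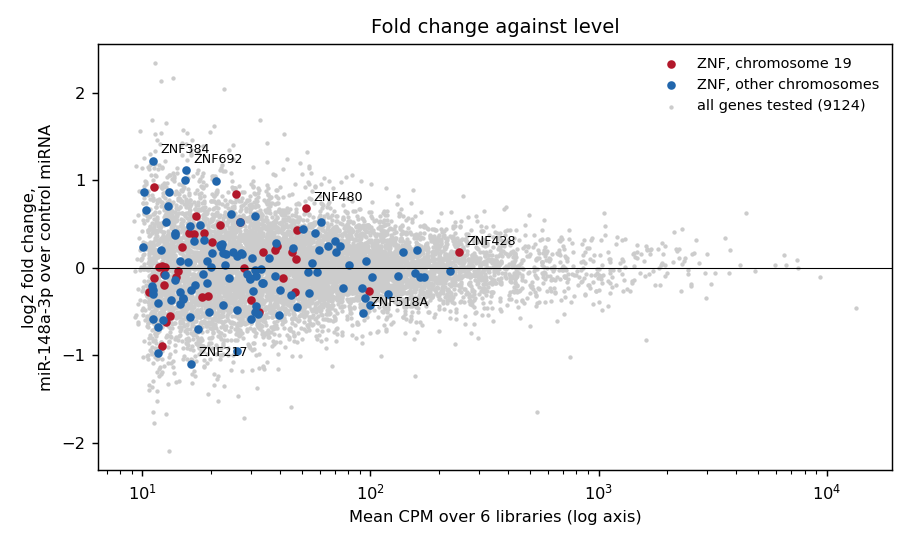
Log2 fold change (miR-148a-3p over control miRNA) against mean CPM (log axis) for the ZNF genes in colour and all 9124 genes tested in grey. The ZNF genes lie between −1.09 and 1.23, inside the cloud of other genes.

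Among members with lower fitted values, the smallest p belonged to ZNF280D (chromosome 15, 56630176 to 56733509), counted at 23.6, 10.7 and 18.1 CPM with miR-148a-3p and at 43.1, 33.7 and 27.3 CPM with the control miRNA. Each miR-148a-3p library was below each control library, and the log2 fold change was −0.95 ± 0.38 (edgeR adjusted p = 0.632). ZNF518A (chromosome 10, 96129715 to 96205291), a partner of histone methyltransferases, was counted at 90.6, 75.8 and 60.7 CPM with miR-148a-3p and at 116, 108 and 107 CPM with the control miRNA. These groups did not overlap either, and the log2 fold change was −0.52 ± 0.23 (edgeR adjusted p = 0.694). ZNF217 (chromosome 20, 53567071 to 53597702), an oncogene product that binds CoREST and CtBP, was counted at 16.4, 3.55 and 9.85 CPM with miR-148a-3p and at 20.1, 30.2 and 18.2 CPM with the control miRNA, again without overlap. Its log2 fold change of −1.09 ± 0.50 (edgeR adjusted p = 0.714) was the lowest of any member, and it ranged from −1.82 to −0.71 as single libraries were left out.

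ZNF281, a GC-box factor linked to stem cells and to epithelial-mesenchymal transition, averaged 85.03 ± 10.6 CPM with miR-148a-3p and 113 ± 24.96 CPM with the control miRNA, and the groups overlapped (log2 fold change −0.42 ± 0.23). ZNF397, a SCAN-domain protein, averaged 32.9 ± 5.14 CPM with miR-148a-3p and 46.9 ± 6.66 CPM with the control miRNA without overlap (−0.54 ± 0.31). ZNF251 rested on few reads and averaged 7.25 ± 5.17 CPM with miR-148a-3p and 16.1 ± 6.95 CPM with the control miRNA, with overlap (−0.98 ± 0.57).

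Among members with higher fitted values, ZNF480 (chromosome 19, 52297169 to 52325922), a KRAB zinc finger gene, was counted at 65.7, 50.9 and 77.1 CPM with miR-148a-3p and at 45.03, 39.5 and 35.3 CPM with the control miRNA. The groups did not overlap, and the log2 fold change was 0.68 ± 0.28 (edgeR adjusted p = 0.657). ZNF692 (chromosome 1, 248850008 to 248859085) was counted at 19.7, 15.4 and 29.5 CPM with miR-148a-3p and at 10.5, 6.97 and 11.4 CPM with the control miRNA, with a log2 fold change of 1.12 ± 0.49 (edgeR adjusted p = 0.688). Its neighbour ZNF672 (chromosome 1, 248838224 to 248849517), 490 bases away, was counted at 17.1, 14.2 and 31.2 CPM with miR-148a-3p and at 10.5, 5.81 and 13.7 CPM with the control miRNA, with a log2 fold change of 1.00 ± 0.51 (edgeR adjusted p = 0.720). Both neighbours were higher without overlap, and both were highest in miR-148a-3p replicate 3, the library with the fewest counts. Of the 3 pairs of members that lay within 10 kb without overlapping, 2 had fitted changes of the same sign.

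ZNF358 (chromosome 19, 7513880 to 7521025) averaged 33.1 ± 5.48 CPM with miR-148a-3p and 18.2 ± 4.39 CPM with the control miRNA (log2 fold change 0.85 ± 0.38). ZNF512B, which binds NuRD, averaged 28.003 ± 7.996 CPM with miR-148a-3p and 14.03 ± 6.41 CPM with the control miRNA (0.99 ± 0.44). ZNF384, a factor known for its gene fusions in acute lymphoblastic leukemia, averaged 15.9 ± 5.77 CPM with miR-148a-3p and 6.41 ± 3.67 CPM with the control miRNA. Its log2 fold change of 1.23 ± 0.59 (edgeR adjusted p = 0.717) was the highest of any member, from 15, 14 and 13 reads with miR-148a-3p and 8, 8 and 2 reads with the control miRNA. In each of these 3 genes the groups did not overlap.

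**Figure D3:**
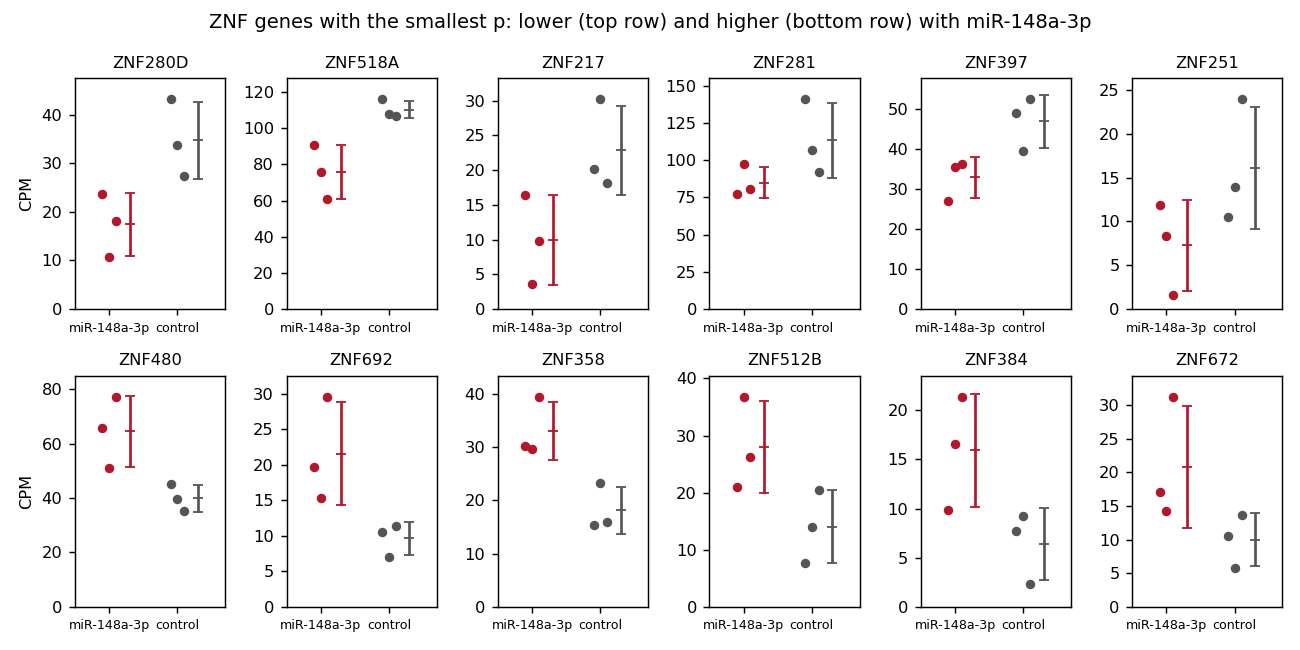
CPM in every library (points) with the mean and SD (bars, n = 3) for the 6 members with the smallest p in each direction, miR-148a-3p at left and control miRNA at right. The groups separate in 10 of the 12 genes and overlap in ZNF281 and ZNF251. The genes were picked by p, which favours separation. Without that choice, the groups did not overlap in 12.7% of members and 12.9% of all genes tested.

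By role, the members stood on either side of 0. Of 9 members listed for ribosome, translation and RNA work, 4 had lower and 5 higher fitted values, with a median of 0.037 and a range from −0.35 to 0.52. ZNF207, which carries BUB3 to kinetochores, averaged 81.6 ± 16.6 CPM with miR-148a-3p and 79.6 ± 20.3 CPM with the control miRNA. ZNF326, of the DBIRD complex that couples transcription to splicing, averaged 77.2 ± 15.8 CPM with miR-148a-3p and 62.2 ± 20.8 CPM with the control miRNA. ZNF593, a factor of large ribosomal subunit assembly known from its yeast counterpart, averaged 64.2 ± 21.7 CPM with miR-148a-3p and 54.3 ± 19.4 CPM with the control miRNA. None of the 9 had an unadjusted p below 0.05.

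Chromatin corepressor partners had wider quartiles, −0.51 and 0.37, around a median of 0.032. Of the 13 tested (of 15 listed), 6 were lower and 7 higher, and 3 had an unadjusted p below 0.05, namely ZNF217, ZNF518A and ZNF512B (23.1%, against 6.94% of all genes). The groups did not overlap for 3 lower and 2 higher of them (38.5%, against 12.9% of all genes), and the list was chosen with earlier results known. ZNF644, a partner of the G9a and GLP methyltransferases, averaged 82.9 ± 21.1 CPM with miR-148a-3p and 107 ± 5.26 CPM with the control miRNA (log2 fold change −0.34 ± 0.23). ZNF462, mutated in a neurodevelopmental syndrome, averaged 39.7 ± 15.04 CPM with miR-148a-3p and 50.4 ± 1.32 CPM with the control miRNA (−0.31 ± 0.30, or −0.080 without miR-148a-3p replicate 3).

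Promoter-binding factors without KRAB had a median of −0.11, with 8 of 13 tested lower (14 listed). Of the 13, 1 had an unadjusted edgeR p below 0.05, and it was higher (7.69%, against 6.94% of all genes). The groups did not overlap for 1 lower and 2 higher of them (23.1%, against 12.9% of all genes). ZNF148, which binds GC boxes, averaged 98.6 ± 5.53 CPM with miR-148a-3p and 93.2 ± 10.2 CPM with the control miRNA. ZNF146, a protein of little more than zinc fingers (chromosome 19, 36214723 to 36238768), averaged 90.2 ± 28.6 CPM with miR-148a-3p and 106 ± 16.8 CPM with the control miRNA. Of 16 KRAB factors listed for retrotransposons or imprinted loci, 10 were counted in any library and 2 reached the floor. ZNF587 averaged 47.9 ± 7.73 CPM with miR-148a-3p and 42.3 ± 26.7 CPM with the control miRNA, and ZNF445, a guardian of imprinted methylation, 27.2 ± 10.5 CPM with miR-148a-3p and 34.05 ± 6.25 CPM with the control miRNA. ZNF91, which represses SVA elements, had 14 reads in all 6 libraries together, and ZNF274, which binds the 3′ ends of ZNF genes, had 18; both were picked for mention after their values were seen.

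The silencing machinery that KRAB proteins recruit was more abundant than the members, with a median of 90.9 CPM over 36 tested genes of 39 listed. Its fitted values were lower in 16 and higher in 20, with a median of 0.046. TRIM28, the KRAB corepressor, was counted at 233, 323 and 274 CPM with miR-148a-3p and at 200.2, 223 and 241 CPM with the control miRNA, with overlap and a log2 fold change of 0.32 ± 0.19 (edgeR adjusted p = 0.756). SETDB1 was counted at 61.1, 61.6 and 91.9 CPM with miR-148a-3p and at 43.1, 44.1 and 55.8 CPM with the control miRNA, without overlap and with a log2 fold change of 0.56 ± 0.27 (edgeR adjusted p = 0.717). The NuRD subunits GATAD2A, at 0.98 ± 0.28 (edgeR adjusted p = 0.334), and MBD3, at 1.21 ± 0.36 (edgeR adjusted p = 0.387), had the smallest p of the list, and RBBP7 had 0.39 ± 0.21 and CHD3 0.34 ± 0.19. The value of RBBP7 was 0.11 without miR-148a-3p replicate 3, where it was at 368 CPM. GATAD2A, MBD3, RBBP7 and CHD3 were picked by their p. Other NuRD subunits of the list, named after their values were seen, lay on both sides of 0. HDAC2 had −0.17 and MTA1 −0.13, while CHD4 had 0.062, GATAD2B 0.12, MTA2 0.15, MTA3 0.17, RBBP4 0.30 and HDAC1 0.33. No gene of the list passed the adjusted threshold in edgeR, and 3 had an unadjusted p below 0.05, all higher (8.33%, against 3.49% of all genes). TRIM28, MBD3 and GATAD2A lie on chromosome 19. So does DNMT1 of the same list, which was lower, at −0.25 ± 0.19, and was named after its values were seen. Of 34 tested genes from a list of 44 C2H2 factors with other names, 14 were lower and 20 higher, with a median of 0.034. Of 25 tested genes with ZBTB symbols, zinc finger factors with a BTB domain, 13 were lower and 12 higher, with a median of −0.031. At an unadjusted edgeR p below 0.05 were 4 of the 25, all lower, against 3.45% of all genes lower. Of 4 ZSCAN genes 3 were lower, with 0 at that p. Of 5 ZFP genes 3 were higher, and 2 were at that p, both higher, against 3.49% of all genes higher.

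Split by location, the 38 members on chromosome 19 had a median log2 fold change of 0.014 (16 lower, 22 higher) and the 112 elsewhere −0.053 (60 lower, 52 higher). On chromosome 19 the groups did not overlap for 4 higher members (ZNF480, ZNF791, ZNF358 and ZNF101) (10.5%, against 6.31% of all genes) and for 0 lower ones (against 6.61%). Of the 515 other genes there, 84 were higher without overlap (16.3%) and 13 lower (2.52%). ZNF791, a KRAB gene, averaged 54.7 ± 1.90 CPM with miR-148a-3p and 40.3 ± 9.81 CPM with the control miRNA (0.43 ± 0.29). Together the members on chromosome 19 made up 0.121%, 0.117% and 0.127% of the miR-148a-3p libraries and 0.117%, 0.116% and 0.108% of the control libraries, just short of overlapping. ZNF428 alone held 443, 199 and 153 of the 1888, 989 and 800 summed counts with miR-148a-3p. With the control miRNA it held 216, 252 and 168 of 1251, 1019 and 966. Without the counts of ZNF428 the groups overlap. Members on other chromosomes made up 0.449%, 0.459% and 0.424% with miR-148a-3p and 0.487%, 0.428% and 0.449% with the control miRNA, with overlap and the highest share in control replicate 1.

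**Figure D4:**
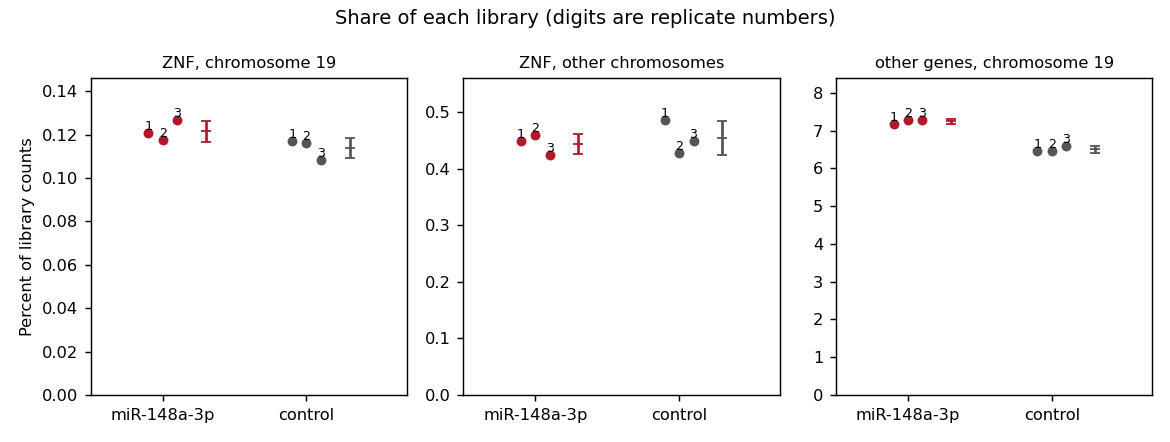
Percent of library counts in ZNF genes on chromosome 19, ZNF genes on other chromosomes and the other tested genes of chromosome 19, for each library (points, with replicate numbers) and as mean and SD (bars, n = 3). The other chromosome 19 genes separate the groups, at 7.18% to 7.29% with miR-148a-3p and 6.45% to 6.60% with the control miRNA. The ZNF genes of chromosome 19 just miss overlapping, which depends on ZNF428, and those elsewhere overlap.

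The other genes of chromosome 19 had higher fitted values than its ZNF genes. The 515 tested there had a median log2 fold change of 0.18, with 375 (72.8%) higher. At an unadjusted p below 0.05, 64 of them (12.4%) were higher and 8 (1.55%) lower, against 3.49% and 3.45% of all genes. They made up 7.18%, 7.27% and 7.29% of the miR-148a-3p libraries, against 6.45%, 6.45% and 6.60% of the control libraries. On the other chromosomes, medians over genes that are not members lay between −0.11 (chromosome 13) and 0.090 (chromosome 22). The ZNF median on chromosome 19 was below that of the other genes there under all 16 alternatives, and it was under 0.1 in 12 of them. With DESeq2 it was 0.023, against 0.17 for the other genes, and with a floor of 30 summed counts 0.012, against 0.17. In the other 4 the ZNF median was higher, at 0.14 against 0.18 with filterByExpr (32 members) and 0.12 against 0.19 with limma-voom. For the 17 members with at least 120 summed counts it was 0.18 against 0.19, and without miR-148a-3p replicate 2 it was 0.13 against 0.18. The gap itself was not tested.

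Gene length, promoter composition and level differed along with location. ZNF genes on chromosome 19 spanned a median of 25.2 kb and the other genes there 15.1 kb. The median GC content of their promoters was 62.8% in the ZNF genes and 66.7% in the others. The 19 ZNF genes there below the ZNF median length had a median log2 fold change of 0.18 and the other 19 had 0.0087. The other chromosome 19 genes had 0.19 (349 below that length) and 0.15 (166 at or above it). Over all genes tested, the medians were 0.071 below that length and −0.051 at or above it. ZNF genes on other chromosomes had 0.093 below that length and −0.078 at or above it. Under 50 CPM, where 35 of the 38 ZNF genes of chromosome 19 lay, those 35 had a median of 0.013. The other chromosome 19 genes under 50 CPM had a median of 0.17. These splits were chosen after the values were seen, and the part of length, composition and level in the result was not tested.

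**Figure D5:**
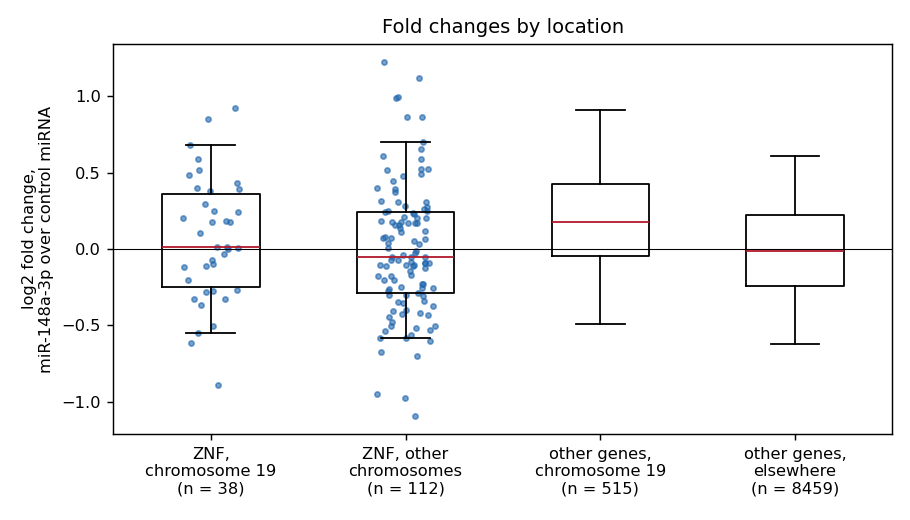
Log2 fold changes (miR-148a-3p over control miRNA) by location, with boxes for quartiles and median, whiskers at percentiles 5 and 95, and points for each ZNF gene. Genes with no matched location are counted elsewhere, and the median of the other chromosome 19 genes, 0.18, lies above those of the ZNF genes, 0.014 and −0.053.

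Along chromosome 19 the members formed 12 runs when members more than 1 Mb apart were separated, and 5 of the 6 runs with at least 3 members held both signs. The exception was the run of 3 genes from 7069703 to 8514167, all higher, with a median of 0.40, and in 2 runs of 2 genes both were lower. The run with most members held 9 genes (51571283 to 53458261), among them ZNF480, with 6 higher and values from −0.62 to 0.68. The run of 5 genes from 21020657 to 21767579 had 2 higher and a median of −0.033, and that of 5 genes from 55576774 to 56160893 had 4 higher and a median of 0.24. In that last run the spans of ZNF580 and ZNF581 share 2469 bases, so their reads may not be separable, since strand use in counting is not stated. The lowest and highest fitted values on the chromosome were those of ZNF574 (−0.89, at 12.2 CPM) and ZNF865 (0.92, at 11.2 CPM). Both had overlapping groups, ZNF865 ranged from 0.42 to 1.59 with 1 library left out, and ZNF574 was named after its values were seen.

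The promoters of many members shared a sequence feature that the rule did not use. RefSeq promoters (GRCh38.p14, 250 bases before to 50 after the first start listed) were matched for 128 of the 150 members, and 54 of them (42.2%) held CCGGAAG, a core that ETS-family activators bind, on either strand. It was found in 21.7% of the promoters of genes tested, 10.7% of all promoters in the table and 20.1% of those of the other chromosome 19 genes. On chromosome 19, 18 of 36 members' promoters held it, and 39.1% of members' promoters elsewhere. Only the first start was used, although 31 of the 128 matched members had more than 1, so positions depend on that choice. Matches lay at a median of 24 bases before the start in members and 45 in genes tested. Between 100 bases before and 50 after the start lay 84.1% of the members' matches and 73.1% of those in genes tested. These are shares of letters in a window, and binding was not measured.

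The promoters of 3 members are shown with the match, or its reverse complement, in capitals: ZNF587 as a KRAB gene of chromosome 19, ZNF384 because it holds 3 matches and the highest fold change, and ZNF24 as an abundant member. They span chr19:57849609-57849908 (plus strand), chr12:6689326-6689625 (minus strand) and chr18:35344371-35344670 (minus strand) of GRCh38.p14.
ZNF587: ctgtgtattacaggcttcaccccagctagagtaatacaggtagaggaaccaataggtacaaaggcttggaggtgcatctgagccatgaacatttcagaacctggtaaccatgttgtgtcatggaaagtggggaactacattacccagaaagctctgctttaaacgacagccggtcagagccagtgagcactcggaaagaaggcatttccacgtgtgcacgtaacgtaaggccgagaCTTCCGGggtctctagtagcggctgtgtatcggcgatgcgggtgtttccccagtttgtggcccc
ZNF384: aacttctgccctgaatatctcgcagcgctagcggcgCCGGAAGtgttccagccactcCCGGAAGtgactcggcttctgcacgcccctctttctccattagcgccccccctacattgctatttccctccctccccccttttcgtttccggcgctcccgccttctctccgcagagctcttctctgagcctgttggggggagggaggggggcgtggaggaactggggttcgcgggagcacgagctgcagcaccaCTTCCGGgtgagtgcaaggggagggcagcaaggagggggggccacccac
ZNF24: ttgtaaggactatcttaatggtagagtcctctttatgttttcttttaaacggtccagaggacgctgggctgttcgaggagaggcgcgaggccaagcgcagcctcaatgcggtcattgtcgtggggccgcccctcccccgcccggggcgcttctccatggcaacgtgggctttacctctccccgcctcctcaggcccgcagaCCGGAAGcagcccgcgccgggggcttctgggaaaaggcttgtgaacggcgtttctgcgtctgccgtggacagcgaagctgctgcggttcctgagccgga
The log2 fold changes of these genes were 0.18 for ZNF587, 1.23 for ZNF384 and −0.11 for ZNF24, and those of ZNF587 and ZNF24 changed sign when 1 library was left out.

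Of 10 motifs searched on both strands, CCGGAAG had the widest gap in percentage points between members and genes tested. ACTACAA, within the element that ZNF143 binds, was in 7.81% of members' promoters and 4.07% of those of genes tested. The GC box GGGCGGG was in 51.6% of members and 56.8% of genes tested, and TATAAA in 3.12% and 4.84%. TGACGT was in 13.3% of members and 12.9% of genes tested, and the palindrome TGACGTCA that contains it in 5.47% and 3.77%. AAGATGG, within the YY1 site, was in 7.03% of members and 8.60% of genes tested. The longer forms of the ZNF143 and YY1 sites and the NRF1 site, searched as well, were in 1.56%, 0.781% and 2.34% of members and 0.616%, 2.53% and 2.56% of genes tested.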

How the data were processed

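Each of the 6 messenger RNA libraries came as a list of gene symbols with raw read counts, as deposited by the authors; a symbol missing from a library's list was read as 0. Per the labels' protocols, libraries were made from 500 ng of RNA with a 3′ kit and oligo-dT priming. Per the submitters' processing notes, cutadapt, STAR, Bowtie2 and GRCh38 were used. No source used here names the counting tool, its annotation or its handling of strand and of reads that match several genes. The wild-type small RNA library was not used here. Locations are those of RefSeq (GRCh38.p14), found for 390 of the 392 ZNF names directly and for 2 through a former name.

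Symbols with at least 60 summed counts, a floor blind to group, were fitted with edgeR 4.0.16 in R 4.3.3 (TMM, quasi-likelihood F test, group as the only term). Benjamini-Hochberg adjustment ran over all 9124 genes, with 0.05 as the threshold. The SE is the absolute log2 fold change divided by the square root of F. Total counts per library were 630142 to 1564125, and replicate pairs differed by 2.54 to 5.77 times Poisson counting, so none was treated as a repeat. The fit was tested on simulated counts. Named genes were the 10 most abundant members, the 6 with the smallest p in each direction, the 4 most abundant on chromosome 19, up to 4 of each role list, the 3 symbols on either side of the floor (those below it were not fitted), and 6 silencing partners (TRIM28, SETDB1 and the 4 with the smallest p). The members, role lists (written from memory) and rules were chosen with earlier results of these data known. Alternatives were DESeq2 1.42.0 and limma-voom (limma 3.58.1), other size factors, filters and floors, a replicate block and leaving out each library.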

Additional observations from a re-analysis of the deposited data

How the results depend on the processing

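Under all 16 alternatives 0 members passed the threshold, also without control replicate 1, where edgeR called 27 of all genes. The members' median log2 fold change of −0.022 became 0.032 with limma-voom and ranged from −0.026 to 0.043 with 1 library left out. The median on chromosome 19 became 0.14 with filterByExpr, 0.12 with limma-voom and 0.18 with a floor of 120, and ranged from −0.030 to 0.13 with 1 library left out. That on other chromosomes became 0.028 with a floor of 30, and ranged from −0.053 to 0.036 with 1 library left out. Those floors keep 229 symbols (30) and 85 (120). Of the 40 named genes that were fitted, 31 kept their sign in every alternative that held them, and 29 changed sign or moved by over 1.5 times with 1 library left out. The 9 with a change of sign had ranges of −0.28 to 0.19 for ZNF503, −0.28 to 0.21 for ZNF609, −0.15 to 0.13 for ZNF638, −0.29 to 0.32 for ZNF652, −0.15 to 0.23 for ZNF207, −0.11 to 0.85 for ZNF587, −0.22 to 0.070 for ZNF24, −0.036 to 0.51 for ZNF740 and −0.034 to 0.55 for ZNF593. The causes were not tested. With the replicate block 0 members passed, 3 lower and 6 higher had an unadjusted p below 0.05, and the members' median was −0.0073. The median on chromosome 19 was 0.097 with that block. Libraries with the same number had correlations of 0.133, 0.0963 and 0.000533 in their deviations from the group means. Those of numbers 1 and 2 were the highest of any pair across the groups. For miR-148a-3p replicate 3 the best was control replicate 2, at 0.0229, and the numbers were not taken to pair the libraries. Low counts limit the members: 92 of 150 had at least 10 reads in every library.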
